A study of Drosophila melanogaster with 36 samples.

Results

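Draper and 9 genes that act with it or beside it in the clearance of dying cells and neuronal debris were followed through 36 RNA-seq libraries of the Drosophila brain. The 10 genes were taken from the count table by symbol, out of 17562 genes in all. The set follows the known pathway, and it was drawn up with earlier results of these data known. They are the receptors drpr, NimC4 and crq, the adaptor Ced-6 with the kinases Shark and Src42A, and the Crk, mbc, Ced-12 and Rac1 module. Each of the 10 symbols had a row of its own in the table, and 9 of the 10 passed the low-count filter in every comparison. The exception was NimC4, which was left untested for the age comparison of sorted GMR10E12 glia.

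Glia are the resident phagocytes of the fly brain, and Draper (drpr), a transmembrane receptor of the CED-1 and MEGF10 family, is the receptor through which they recognise degenerating axons and dead neurons. In flies, Src42A phosphorylates the intracellular tail of Draper, the Syk-related kinase Shark then binds it, and the adaptor Ced-6 couples the receptor to uptake. Further downstream, the adaptor Crk and the exchange factor formed by mbc (relative of DOCK180) and Ced-12 (relative of ELMO) activate the small GTPase Rac1, which remodels actin around the cargo. NimC4 (also known as Simu) tethers apoptotic cells upstream of Draper in the embryo, and crq (croquemort) is a CD36-family receptor best known from the phagocytic blood cells, the hemocytes.

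The flies carried a GAL4 driver with UAS-GFP, and only females were used, at day 5 (young) or day 70 (old). GMR56F03 and GMR10E12 mark mainly ensheathing glia, the glia that wrap neuropil compartments, and GMR86E01 marks astrocyte-like glia, whose processes enter the neuropil. From each pool of dissected brains, the live GFP+ cells were sorted and the unsorted cell suspension was kept as whole brain, with actinomycin D present during dissociation in both. This gave 12 groups of 3 replicates each: sorted ensheathing glia of either line, sorted astrocyte-like glia and whole brain of each of the 3 lines, at both ages. A sorted population is what the driver labels, so other GFP+ cells or carried-over RNA could be part of it. Replicates are numbered in the labels, and the study's methods describe each as a pool of brains. The p-values measure the spread between libraries. In sorted cells against whole brain, the libraries of a pool count as separate, except in an alternative fit that pairs them, the replicate block.

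Libraries held between 912285 and 17060052 counts, and the shallowest was replicate 1 of old GMR10E12 whole brain. The shallowest sorted library was replicate 1 of young astrocyte-like glia, with 1514977 counts. The lowest level that 3 counts allow was between 0.894 and 24.9 normalized counts per library, normalized counts being counts divided by a size factor for each library. The glial marker repo was higher in sorted cells than in whole brain by 2.39 ± 0.14 (log2 fold change ± SE) for GMR56F03, 1.93 ± 0.21 for GMR10E12 and 3.01 ± 0.27 for GMR86E01. Of 9 neuronal markers, 8, 9 and 9 were lower in the same order. All 5 astrocyte markers were lower in sorted ensheathing than in sorted astrocyte-like glia, while 2 of 5 ensheathing glia markers, Eaat2 and sgl, were higher (list median 0.45) and so were all 3 surface glia markers (list median 2.08). Against whole brain, the surface glia markers had a median of 3.02 in GMR10E12 glia, where 3 of 3 were higher, beside 1.30 for the ensheathing markers, and of -0.02 in GMR56F03 glia, beside 2.03. All 7 hemocyte markers tested (Hml, He, NimC1, eater, srp, Pxn, Sr-CI) were higher in sorted cells than in whole brain of all 3 lines, and none was at 0 in any sorted library. Their summed level was between 679 and 2849 normalized counts in whole brain libraries and between 3795 and 32114 in sorted ones.

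In the dm6 genome, drpr (FBgn0027594) lies on the minus strand of chromosome 3L at 1715595 to 1731107 with 4757 exon bases. NimC4 (FBgn0260011) is at 14047582 to 14048863 on the plus strand of 2L, with 1282 exon bases. On the minus strand of 2L, crq (FBgn0015924) covers 448254 to 453024, and 448 of its 2848 exon bases (15.73%) overlap ex on the opposite strand. Ced-6 (FBgn0029092), Shark (FBgn0015295) and Src42A (FBgn0264959) are on 2R, with 3022, 3176 and 7385 exon bases. Crk (FBgn0024811) sits on chromosome 4 at 210224 to 213165, mbc (FBgn0015513) on 3R at 23781765 to 23801634, Ced-12 (FBgn0032409) on 2L at 12097838 to 12100839 and Rac1 (FBgn0010333) on 3L at 1300879 to 1302683. Values are for whole genes, so the isoforms of drpr are not separated. Reads that fit exons of several genes were not counted by the authors, and Rac1 and its near-identical paralog Rac2 could exchange reads, so their values are less certain. Whether the counting used strand is not given in the sources used here. Without strand, reads on the bases that crq shares with ex were left out of both genes. With strand, they were assigned by the strand of the read.

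The first comparison asked which engulfment genes mark sorted glia. Among the receptors, drpr was higher in sorted glia than in whole brain of all 3 lines. In GMR56F03 ensheathing glia drpr had 1254 normalized counts in the lowest, 1613 in the median and 1823 in the highest of 6 libraries, and whole brain had 567.9, 716 and 894. The GMR10E12 glia held between 1629 and 2528 with a median of 1912, against 349 to 913 with a median of 712 in whole brain. In astrocyte-like glia the range was 1235 to 2372 with a median of 1967, against 538 to 760 with a median of 685. No sorted library of any line overlapped any whole brain library, and drpr was 2.17-fold higher in GMR56F03 (log2 1.12 ± 0.12, edgeR adjusted p = 3.35e-06), 2.85-fold in GMR10E12 (1.51 ± 0.22, adjusted p = 7.13e-05) and 2.72-fold in GMR86E01 (1.44 ± 0.18, adjusted p = 2.77e-05).

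The scavenger receptor crq was also higher in sorted cells, by 2.75-fold for GMR56F03 (log2 1.46 ± 0.15, adjusted p = 2.62e-06), 4.97-fold for GMR10E12 (2.31 ± 0.23, adjusted p = 1.68e-06) and 6.40-fold for GMR86E01 (2.68 ± 0.24, adjusted p = 3.35e-06). Its lowest and highest libraries were 690 and 1275 normalized counts in sorted GMR56F03 glia, 1109 and 3935 in GMR10E12 glia and 1455 and 4354 in astrocyte-like glia, while whole brain libraries held 301 to 930. The highest whole brain value was that of the shallowest library, so within each line the sorted and unsorted libraries did not overlap but over all lines they did. The hemocyte markers, genes of the cells in which crq is best known, moved in the same direction, with median log2 differences of 3.70, 4.41 and 4.73, and their part in the crq difference was not tested.

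NimC4 was near the detection limit. Whole brain libraries held between 2.23 and 16.6 normalized counts, and 5 of 18 sorted libraries had no read of NimC4, which allows at most 14.0 normalized counts in the shallowest of them. The highest values were 90.9 and 107 normalized counts in replicates 2 and 3 of young astrocyte-like glia, while replicate 1 of that group had 0. None of the 3 lines gave a call for NimC4 against whole brain, with log2 differences of -0.42 ± 0.74, 0.48 ± 1.09 and 2.41 ± 1.17.

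The adaptor of Draper was likewise higher in sorted glia of all 3 lines. Ced-6 held 2121 to 3148 normalized counts in sorted GMR56F03 glia (median 2753) and 591 to 911 in their whole brains (median 711), a 3.79-fold difference (log2 1.92 ± 0.13, adjusted p = 2.77e-08). For GMR10E12 the sorted range was 2378 to 4340 and the whole brain range 594 to 1092, a 4.18-fold difference (2.06 ± 0.20, adjusted p = 1.67e-06). For GMR86E01 the ranges were 2193 to 4602 and 282 to 620, a 6.36-fold difference (2.67 ± 0.23, adjusted p = 2.78e-06). As for drpr, no sorted library overlapped any of the 18 whole brain libraries.

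Shark was a low gene and was also higher in sorted glia of all 3 lines. Medians were 87.2, 101 and 122 normalized counts in sorted GMR56F03, GMR10E12 and GMR86E01 cells and 34.3, 23.4 and 27.9 in whole brain, and the difference was 3.57-fold (log2 1.83 ± 0.29, adjusted p = 9.3e-05), 4.03-fold (2.01 ± 0.42, adjusted p = 0.00119) and 3.98-fold (1.99 ± 0.32, adjusted p = 0.00023). Src42A, the kinase that acts before it, had medians of 768, 665 and 740 in sorted cells and 824, 731 and 851 in whole brain, the ranges overlapped in each line, and log2 differences were -0.09 ± 0.11, -0.05 ± 0.19 and -0.22 ± 0.26, none called.

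**Figure D1:**
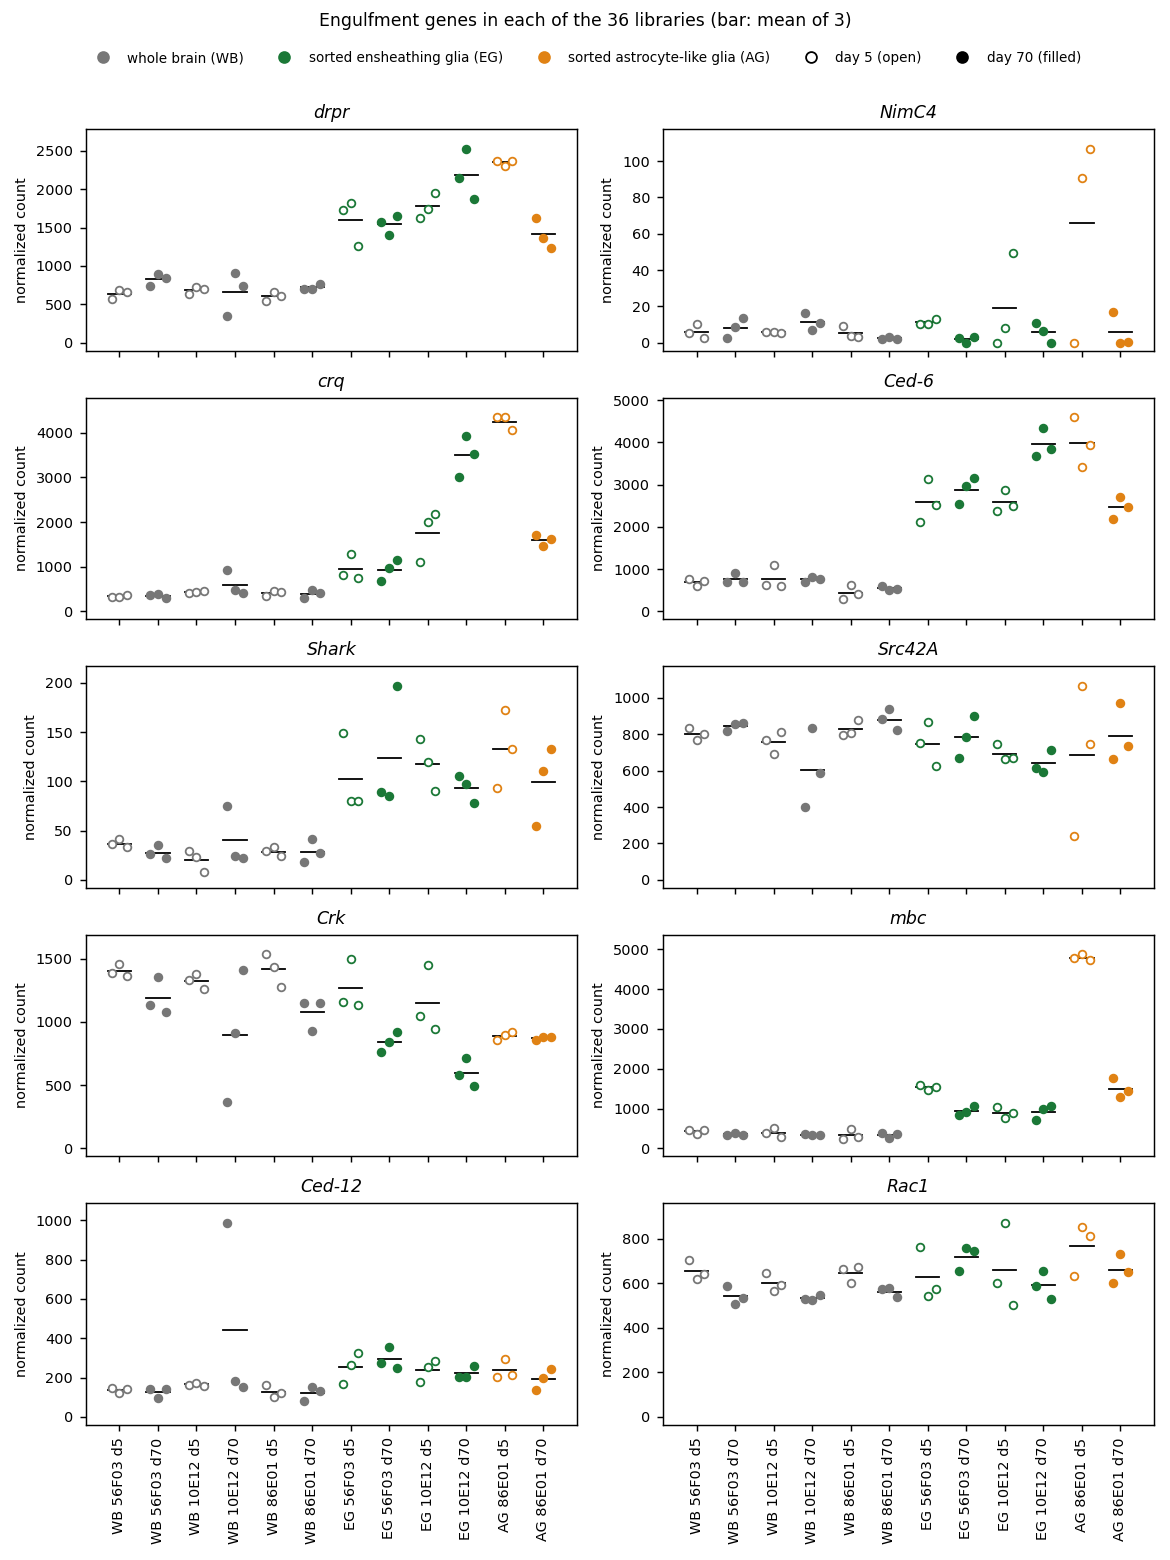
Normalized count (vertical axis, linear) of each of the 10 engulfment genes in each of the 36 libraries, by group (horizontal axis), with day 5 as open and day 70 as filled points and a bar at the mean of 3 replicates. For drpr, Ced-6 and mbc all sorted libraries lie above all whole brain libraries, whereas Src42A, Crk and Rac1 overlap between sorted cells and whole brain.

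The Crk, mbc, Ced-12 and Rac1 module was divided in the same comparison. As part of the exchange factor, mbc held 847 to 1595 normalized counts in sorted GMR56F03 glia and 716 to 1055 in GMR10E12 glia. In astrocyte-like glia mbc held 1292 to 4876, and no whole brain library exceeded 513. The differences were 3.10-fold (log2 1.63 ± 0.11, adjusted p = 5.12e-08), 2.46-fold (1.30 ± 0.18, adjusted p = 4.14e-05) and 7.86-fold (2.98 ± 0.31, adjusted p = 8.31e-06). Its partner Ced-12 was 2.07-fold higher in GMR56F03 glia (1.05 ± 0.17, adjusted p = 0.00013), where 6 sorted libraries held 169 to 356 and 6 whole brain libraries 97.3 to 146. In astrocyte-like glia Ced-12 was 1.68-fold higher (0.75 ± 0.23, adjusted p = 0.0165), with overlapping ranges of 135 to 292 and 79.4 to 160, and the call was lost without replicate number 2 (0.67, adjusted p = 0.125) or 3 (0.69, adjusted p = 0.141). The GMR10E12 line gave no call (-0.14 ± 0.39), and the shallowest whole brain library held 988 normalized counts of Ced-12 where the other 5 held 154 to 184.

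Crk went the other way. It was 1.41-fold lower in astrocyte-like glia, whose 6 libraries held 854 to 921 normalized counts, than in their whole brains, which held 925 to 1537 (log2 -0.50 ± 0.12, adjusted p = 0.00492). That call was lost without replicate number 1 (-0.39, adjusted p = 0.0726) or 3 (-0.53, adjusted p = 0.0569). In GMR56F03 glia it was 1.24-fold lower (-0.31 ± 0.11, adjusted p = 0.032). This call was lost when any replicate number was left out (adjusted p from 0.0711 to 0.198) and with the replicate block (-0.32, adjusted p = 0.0555). It was also lost without a filter (-0.29, edgeR adjusted p = 0.0653) and with 10 counts required in every library (-0.23, edgeR adjusted p = 0.0909). For GMR10E12 the difference of -0.43 ± 0.27 was not called with all libraries and was called without the shallowest whole brain library (-0.59, adjusted p = 0.0222). Rac1 gave no call, with log2 differences of 0.17 ± 0.13, 0.13 ± 0.16 and 0.23 ± 0.12 and medians between 595 and 700 in sorted cells and between 557 and 605 in whole brain. Without the shallowest sorted library, Rac1 was called higher in astrocyte-like glia (0.28, adjusted p = 0.0465).

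Of the 10 genes, 6 were higher and 1 lower in GMR56F03 glia, where 47.3% of all genes tested were called. In GMR10E12 glia 5 were higher and none lower, against 39.3% of all genes called, and in astrocyte-like glia 6 were higher and 1 lower, against 44.9%. Read against those shares, being called is common in this comparison. By direction and size, the median log2 difference of the 10 was 1.08, 0.89 and 1.72, beside medians of all genes within 0.05 of 0. The same 5 genes, drpr, Ced-6, Shark, mbc and crq, were higher in each line. Over all genes tested, 2371, 1927 and 2232 were higher in the 3 lines. How many of them were higher in every line was not counted, so the recurrence of the 5 has no share to stand beside.

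**Figure D2:**
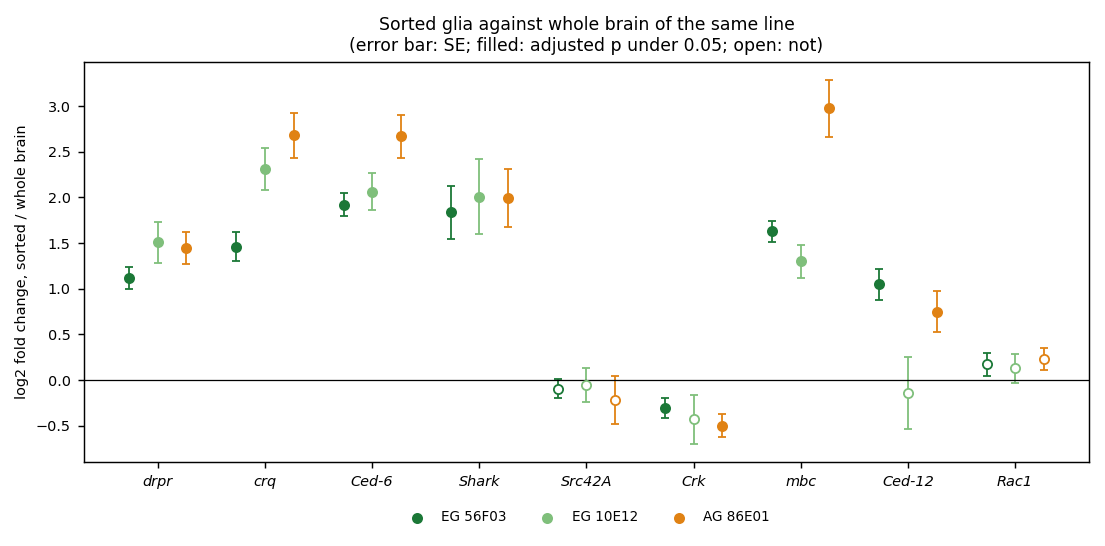
Log2 fold change of sorted glia over whole brain of the same line (vertical axis) for 9 engulfment genes, NimC4 being left out for its low counts, with error bars of 1 SE and filled points where the edgeR adjusted p was under 0.05. Points for drpr, crq, Ced-6, Shark and mbc lie between 1.12 and 2.98, and those for Src42A, Crk and Rac1 between -0.50 and 0.23.

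Genes known to work around this core were read from lists. Of 12 further receptors, ligands and bridging factors, 10 could be tested in GMR56F03 and 11 in each of the other lines. In sorted GMR56F03 cells all 10 were higher, in GMR10E12 cells 9 of 11 and in GMR86E01 cells 10 of 11, and none was lower, where 47.3%, 39.3% and 44.9% of all genes were called in either direction. They included the Nimrod family members NimB4 (log2 3.74 ± 0.41, 4.44 ± 0.28 and 4.86 ± 0.27) and NimC1 (3.82 ± 0.38, 4.41 ± 0.65 and 4.73 ± 0.56) and the scavenger receptor Sr-CI (3.76 ± 0.44, 4.70 ± 0.41 and 4.75 ± 0.43). Since NimC1, eater and Sr-CI also stand among the 7 hemocyte markers, this list and those markers are not separate readings. Of 24 signaling and cytoskeletal genes, 8, 7 and 11 were higher and 5, 3 and 4 lower. In the GMR56F03 and GMR10E12 lines those counts are near the shares of all genes called, and the list medians were 0.22, 0.26 and 0.36. The receptor tyrosine kinase Pvr, which acts beside Draper in glial clearance, was higher by 2.51 ± 0.18, 3.01 ± 0.24 and 3.26 ± 0.35, and Rac2 by 1.98 ± 0.18, 1.50 ± 0.25 and 2.84 ± 0.25. On the other side were the dynamin shi (-1.09 ± 0.11, -1.14 ± 0.16 and -1.67 ± 0.19) and Src64B, the other Src family kinase of the fly (-0.88 ± 0.16, -1.80 ± 0.29 and -1.65 ± 0.47). Of 15 phagosome, calcium entry and lysosome genes, 8, 9 and 8 were higher and none lower, with list medians of 0.26, 0.71 and 0.51 beside the same shares of all genes. They were led by the cathepsin Cp1 (2.08 ± 0.19, 2.60 ± 0.26 and 2.53 ± 0.16) and the sterol carrier Npc2a (1.82 ± 0.16, 1.74 ± 0.25 and 2.30 ± 0.20).

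Scaled per kilobase of exon, the genes could be set against each other. In whole brain the highest mean was that of Crk, with 897 normalized counts per kb, followed by Rac1 with 328, Ced-6 with 219, crq with 148 and drpr with 145. Lower were Src42A with 106, Ced-12 with 72.1, mbc with 49.2, Shark with 9.58 and NimC4 with 5.18. Over the 18 sorted libraries the order began with Ced-6 at 1018 normalized counts per kb, crq at 760, Crk at 689, drpr at 380.5 and Rac1 at 372, and mbc reached 236. These means pool lines and ages and use all annotated exon bases of a gene, so they rank genes only roughly.

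Ensheathing and astrocyte-like glia were then compared with age held in the fit. Only mbc of the 10 genes was called, where 5.92% of all genes were, and it was 2.61-fold lower in ensheathing glia (log2 -1.38 ± 0.20, adjusted p = 0.000214). Its 3 young astrocyte-like libraries held 4770, 4876 and 4721 normalized counts, and the highest of the 12 ensheathing libraries held 1595. At day 70 the astrocyte-like libraries held 1762, 1292 and 1448 and lay above all 6 old ensheathing libraries, which held 716 to 1076. For crq the difference was -0.84 ± 0.28 (adjusted p = 0.0935) with both lines and -1.45 (adjusted p = 0.00596) with GMR56F03 alone. The other 8 genes had differences between -1.52 ± 1.01 for NimC4 and 0.25 ± 0.18 for Ced-12, none called. The fit had a single age term, so each difference is an average over both ages. At day 5, drpr held 2307 to 2372 normalized counts in astrocyte-like and 1254 to 1955 in ensheathing libraries. At day 70 these were 1235 to 1627 and 1405 to 2528. Ced-6 held 3424 to 4602 and 2121 to 3127 at day 5, and 2193 to 2719 and 2542 to 4340 at day 70. How many of all genes lay apart at day 5 was not counted.

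Between the 2 ensheathing lines, where 11.5% of all genes were called, crq was the only one of the 10. It was 2.62-fold lower in GMR56F03 than in GMR10E12 glia (log2 -1.39 ± 0.23, adjusted p = 0.0013), with 811, 1275 and 753 normalized counts at day 5 against 1109, 1997 and 2185, and 690, 970 and 1140 at day 70 against 3019, 3935 and 3529. The young groups overlapped and the old groups did not. Without replicate number 3 the adjusted p was 0.0517. The summed hemocyte markers had means of 10532 and 6960 in GMR56F03 glia and 8204 and 17754 in GMR10E12 glia at day 5 and day 70, and none of the 7 was called between the lines. The surface glia markers Mdr65 and Tret1-1 were lower in GMR56F03 (log2 -3.58 ± 0.37 and -4.02 ± 0.21), and moody was higher (0.70 ± 0.12). The part of either group of markers in the crq difference was not tested.

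The next question was how the 10 genes changed with age. In sorted astrocyte-like glia mbc and crq fell, where 6.44% of all genes were called. The 3 young libraries of mbc at 4770, 4876 and 4721 became 1762, 1292 and 1448 at day 70, a 3.09-fold fall (log2 -1.63 ± 0.18, adjusted p = 0.00233). For crq, 4350, 4354 and 4056 became 1707, 1455 and 1630, a 2.58-fold fall (-1.37 ± 0.17, adjusted p = 0.00287). Neither gene overlapped between ages, and both calls were lost in a fit of 2 against 2 libraries without replicate number 2 (adjusted p = 0.0503 and 0.0618) or 3 (0.0585 and 0.0612). The receptor drpr and its adaptor Ced-6 also did not overlap. That makes 4 of the 10 genes, as many as in whole brain of the same line. How many of all genes did not overlap was not counted, here or in the other comparisons. Libraries of drpr had 2362, 2307 and 2372 at day 5 and 1627, 1368 and 1235 at day 70, and those of Ced-6 had 4602, 3424 and 3940 and then 2193, 2719 and 2471. Their log2 values of -0.69 ± 0.19 and -0.65 ± 0.18 gave adjusted p = 0.0661 and 0.0737 in edgeR, and 0.00581 and 0.00662 in DESeq2. Without replicate 1 of day 70, drpr had -0.90 with adjusted p = 0.0358.

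In the same libraries the astrocyte-like markers fell in 5 of 5 cases (alrm by 2.19 ± 0.21, Gat by 2.40 ± 0.25), repo fell by 1.40 ± 0.20, and 6 of 9 neuronal markers rose (Syt1 by 2.62 ± 0.45). The summed neuronal markers went from 3508 to 5962 normalized counts over the young libraries to 9407 to 13260 over the old ones, and 5 of 7 hemocyte markers fell, from a sum of 25310 to 32114 down to 4992 to 6350. The median of all genes tested was 0.11. In bulk RNA a smaller share of a cell type and less RNA per cell cannot be told apart, and the part of these shifts in the values of drpr, Ced-6, mbc and crq was not tested. Within the module, Crk was at 854, 898 and 921 normalized counts at day 5 and 856, 882 and 879 at day 70, with a log2 value of 0.01 ± 0.19, and Rac1 had -0.17 ± 0.22 and Ced-12 -0.27 ± 0.36. These depend on the scale. With total counts as the scale, day 5 and day 70 means were 692 and 911 for Crk, 596 and 692 for Rac1 and 183 and 200 for Ced-12. NimC4 went from 0, 51 and 223 reads to 17, 0 and 2, with no call (-3.61 ± 1.83, adjusted p = 0.297). It was called without replicate number 1. That fit leaves out the young library at 0 and the old one at 17 reads, so its call is not read as support.

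In sorted ensheathing glia of both lines together, where 18.2% of all genes were called, Crk was the only gene of the 10 to be called. It held 1161, 1500 and 1138 normalized counts in young GMR56F03 glia and 759, 843 and 921 in old ones, and 1044, 1451 and 944 in young GMR10E12 glia and 580, 717 and 492 in old ones. All 6 old libraries lay below all 6 young ones, and the fall was 1.74-fold (log2 -0.80 ± 0.15, adjusted p = 0.00205). The call held in all 21 alternatives, with log2 values from -0.85 to -0.69. Not called in edgeR were mbc (-0.38 ± 0.16, adjusted p = 0.115), crq (0.45 ± 0.23, adjusted p = 0.198) and NimC4 (-2.11 ± 1.08, adjusted p = 0.2). The Draper receptor itself had 0.09 ± 0.13, Shark -0.06 ± 0.28, Src42A -0.06 ± 0.12, Ced-12 0.02 ± 0.19 and Rac1 -0.01 ± 0.15, with young and old libraries overlapping for each. Ced-6 had 0.35 ± 0.13 (adjusted p = 0.0723), and was called by DESeq2 (0.36, adjusted p = 0.0456), with 10 counts required in every library (0.38, adjusted p = 0.047) and without replicate 2 of young GMR56F03 (0.43, adjusted p = 0.0294). In the same libraries repo fell by 0.82 ± 0.12, all 5 astrocyte-like markers fell (list median -1.28), and of 5 ensheathing glia markers 3 fell and 1 rose (list median -0.90). The part of these shifts in the values of the 10 genes was not tested.

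The 2 lines were also fitted alone, with 3 libraries against 3. In GMR56F03 glia, where 15.0% of all genes were called, mbc fell 1.63-fold from 1595, 1463 and 1551 to 847, 909 and 1076 normalized counts (log2 -0.71 ± 0.15, adjusted p = 0.0101), without overlap, and Crk fell 1.51-fold (-0.59 ± 0.17, adjusted p = 0.0387). The mbc call was lost without replicate 1 (adjusted p = 0.0551) or 2 (0.056) of day 70, and the Crk call without replicate 2 of day 5 (0.141) or replicate 1, 2 or 3 of day 70 (0.142, 0.118 and 0.0771). In GMR10E12 glia, where 9.58% of all genes were called, mbc had -0.03 ± 0.21, Crk fell 1.98-fold (-0.99 ± 0.22, adjusted p = 0.025) and crq rose 1.92-fold from 1109, 1997 and 2185 to 3019, 3935 and 3529 (0.94 ± 0.25, adjusted p = 0.0451). The crq call was lost without replicate 1 or 2 of day 5 (adjusted p = 0.107 and 0.1) or replicate 1, 2 or 3 of day 70 (0.0663, 0.15 and 0.0777), and the Crk call without replicate 1 or 2 of day 5 (0.0671 and 0.0886) or replicate 1 or 3 of day 70 (0.0624 and 0.0725). Markers of other cells moved in the same comparison. Fat body markers rose in 3 of 3 cases tested (list median 6.25), from a sum of 209.6 to 303 normalized counts in the young libraries to 797, 1032 and 49972 in the old ones, and fat body markers also rose in whole brain in 3 of 3 cases (list median 2.54). Of 7 hemocyte markers 2 rose (list median 1.14), 1 of 3 surface glia markers rose with a summed mean of 5748 at day 5 and 10950 at day 70, 3 of 5 ensheathing glia markers fell and repo fell by 0.77 ± 0.18. Their part in the crq and Crk changes was not tested. Ced-6 did not overlap between ages in this line, at 2378, 2884 and 2507 and then 3684, 4340 and 3836, with 0.56 ± 0.16 (adjusted p = 0.0557 in edgeR and 0.00917 in DESeq2). In GMR56F03, crq had -0.02 ± 0.24.

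In whole brain 1 of the 10 genes was called. Over 18 libraries of 3 lines, where 21.4% of all genes were called, Rac1 fell by 1.24-fold (log2 -0.31 ± 0.07, adjusted p = 0.00375). Its libraries held 567.5 to 706 normalized counts at day 5 (median 644) and 509 to 590 at day 70 (median 537). Young and old libraries of Rac1 did not overlap within any line but overlapped across lines, and the call was lost without GMR56F03 (-0.28, adjusted p = 0.0809), without replicate number 3 (-0.31, adjusted p = 0.0949) or in one fit over all libraries (-0.29, adjusted p = 0.053). Crk had -0.47 ± 0.18 (adjusted p = 0.0644), and without the shallowest library it was called at -0.35 (adjusted p = 0.00456), as it was without replicate 3 of old GMR10E12 whole brain (-0.59, adjusted p = 0.0214) and in DESeq2 (-0.43, adjusted p = 0.0298). In the shallowest library Crk stood at 365 normalized counts where the other 8 old libraries held 910 to 1410. The same holds for drpr, which was at 349 there and at 703 to 913 in the other 8 old libraries: it had 0.13 ± 0.15 over all libraries and 0.23 (adjusted p = 0.0131) without that one. Shark, Ced-12 and crq were highest in that library among the old whole brains, on 9, 119 and 112 reads.

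**Figure D3:**
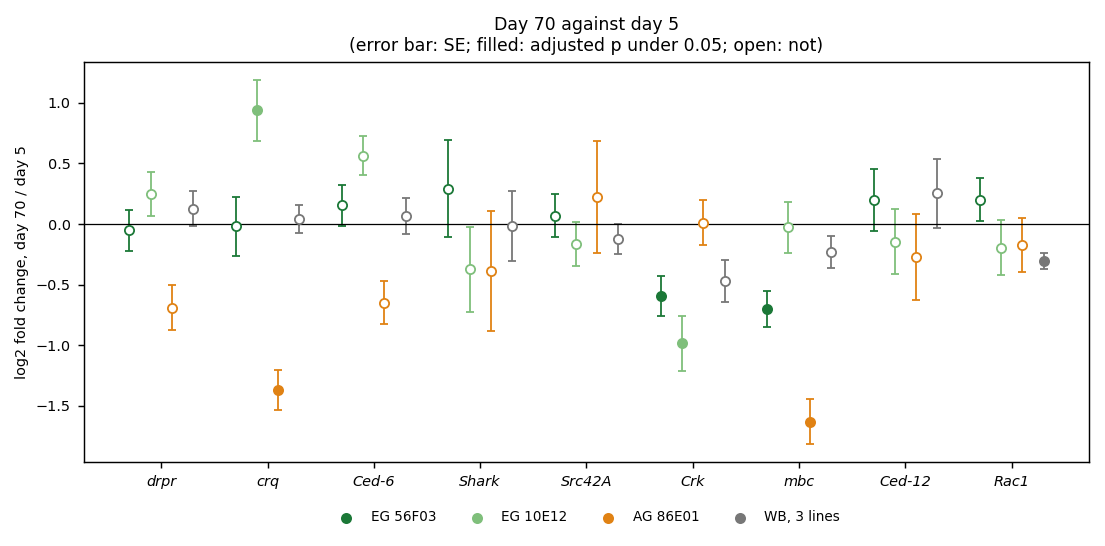
Log2 fold change of day 70 over day 5 (vertical axis) for 9 engulfment genes in sorted ensheathing glia of each line, sorted astrocyte-like glia and whole brain of 3 lines, with error bars of 1 SE and filled points where the edgeR adjusted p was under 0.05; NimC4 is left out. The astrocyte-like values of mbc and crq, at -1.63 and -1.37, are the lowest, and crq in GMR10E12 glia, at 0.94, is the highest.

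The difference between the age effects was tested itself, on the same libraries as the effects above. Ensheathing minus astrocyte-like glia was called for 5 of the 10 genes, where 11.9% of all genes were. The receptor crq had the largest difference, 1.86 ± 0.30 on the log2 scale (adjusted p = 0.000961), followed by mbc with 1.29 ± 0.21 (adjusted p = 0.00113), Ced-6 with 1.04 ± 0.20 (adjusted p = 0.00254) and drpr with 0.82 ± 0.21 (adjusted p = 0.0141), the age effect being the lower in astrocyte-like glia for each. Crk had the opposite sign, -0.77 ± 0.22 (adjusted p = 0.031). The crq difference kept its call under all 11 alternatives, mbc under 10, Ced-6 under 8, drpr under 6 and Crk under 4. With GMR56F03 as the only ensheathing line, drpr had 0.62 (adjusted p = 0.177), Ced-6 0.78 (adjusted p = 0.104) and Crk -0.62 (adjusted p = 0.155). With the replicate block drpr had 0.83 (adjusted p = 0.0514), and Crk had -0.75 (adjusted p = 0.0663) without the shallowest sorted library. Hemocyte markers differed in the same direction as crq, 4 of 7 being called with a list median of 2.29, and 6 of 9 neuronal markers were called in the opposite direction.

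Against whole brain of the same line, the age effect of astrocyte-like glia was lower for drpr (log2 -0.94 ± 0.20, adjusted p = 0.0268), mbc (-1.62 ± 0.34, adjusted p = 0.0222) and crq (-1.31 ± 0.25, adjusted p = 0.014), where 4.28% of all genes were called and the median of all genes was 0.12. With the replicate block, which pairs sorted cells and whole brain of the same brains, mbc alone kept its call, and drpr and crq had adjusted p = 0.0702 and 0.0504. Without any of the 3 replicate numbers none was called. The age effect of ensheathing glia minus that of whole brain was called for 0 of the 10 genes by edgeR, where 4.26% of all genes were, and 1 of the 10, NimC4, had an unadjusted p under 0.05 (0.0433). The Crk difference there was -0.34 ± 0.30 and that of drpr -0.02 ± 0.25.

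Around the core, the same lists were read for age in ensheathing glia, where 18.2% of all genes were called. Of 24 signaling and cytoskeletal genes 6 rose and 2 fell: the metalloprotease Mmp1 rose by 1.97 ± 0.19 on the log2 scale (adjusted p = 2.47e-05), Traf4 by 1.26 ± 0.28 (adjusted p = 0.00695), Pvr by 0.81 ± 0.19 (adjusted p = 0.00926) and the AP-1 subunit kay by 0.69 ± 0.15 (adjusted p = 0.0052), while shi and bsk, the JNK of the fly, fell by 0.58 ± 0.13 and 0.57 ± 0.14. Mmp1 and kay also rose in whole brain, by 1.78 ± 0.29 and 0.69 ± 0.13, and bsk and shi also fell there, by 0.58 ± 0.13 and 0.34 ± 0.08. Of 10 receptors and ligands tested, 3 rose in ensheathing glia: the CD36-family genes pes (1.14 ± 0.26) and santa-maria (0.82 ± 0.23) and the integrin subunit scb (0.74 ± 0.24). Of 15 phagosome and lysosome genes 3 rose, Npc2a by 1.07 ± 0.13, Cp1 by 0.80 ± 0.23 and cathD by 0.60 ± 0.13. The share of phagosome and lysosome genes called is close to that of all genes. The medians of the 3 lists were 0.12, 0.36 and 0.23, beside 0.01 for all genes and -0.03 for the 10 engulfment genes.

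In astrocyte-like glia, where 6.44% of all genes were called, 1 of 24 signaling genes rose (kay, 1.18 ± 0.22) and none fell, a count near that share. Of 11 receptors and ligands tested 4 fell and 1 rose, 3 of the 4 being among the hemocyte markers as well: Sr-CI fell by 2.08 ± 0.16, NimC1 by 1.87 ± 0.21, NimB4 by 1.84 ± 0.20 and eater by 1.62 ± 0.33, and of 15 phagosome and lysosome genes Lamp1 fell by 0.79 ± 0.16 and Cp1 by 0.70 ± 0.14. Itgbn, an integrin subunit that acts with Draper in apoptotic cell uptake, was the 1 receptor and ligand gene called higher. It went from at most 0.479 normalized counts in a young library to between 18.7 and 53.7 in the old ones. It passed the low-count filter only through the old libraries, so its call is not read as support for a rise. In whole brain 1 of 10 receptor and ligand genes tested fell, where 21.4% of all genes were called, the Draper ligand prtp, by 0.55 ± 0.07 (adjusted p = 4.65e-05). In ensheathing glia the age effect of prtp was higher than in whole brain by 0.58 ± 0.16 (adjusted p = 0.0472). It was 1 of 2 genes called for that difference among 11 tested, both higher, where 4.26% of all genes were called.

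The level of crq was then set beside the hemocyte markers library by library. In astrocyte-like glia crq was between 13.5% and 17.2% of the summed markers at day 5 and between 25.7% and 29.2% at day 70, so both fell and the markers fell more. In GMR10E12 glia crq was 18.5% to 25.4% of the sum at day 5 and 17.1% to 24.2% at day 70, with overlapping ranges, while both levels were higher at day 70. GMR56F03 glia had 8.46% to 9.79% at day 5, below all other libraries, and 12.0% to 18.2% at day 70, which overlapped young astrocyte-like and old GMR10E12 glia, and whole brain had 19.2% to 53.4%.

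**Figure D4:**
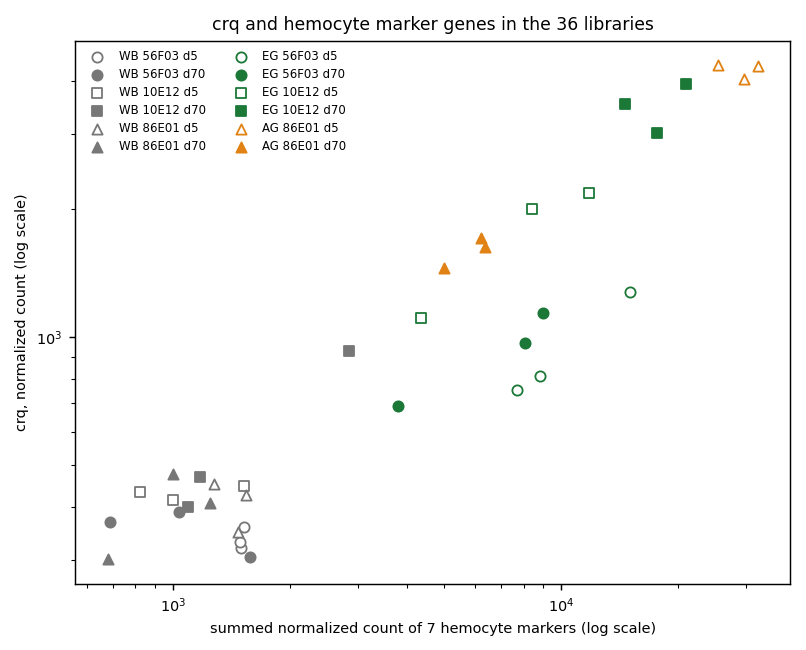
Normalized count of crq (vertical axis, log scale) against the summed normalized count of 7 hemocyte markers (horizontal axis, log scale) in each of the 36 libraries, by tissue (colour), line (shape) and age (open for day 5, filled for day 70). Libraries of astrocyte-like glia move from 4056 to 4354 at day 5 to 1455 to 1707 at day 70 in crq along with the markers, and GMR56F03 glia lie between 690 and 1275 in crq, where the other sorted libraries hold 1109 to 4354.

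Ordered by group mean, drpr ran from 2347 normalized counts in young astrocyte-like glia through 2181 in old and 1775 in young GMR10E12 glia, 1602 in young and 1544 in old GMR56F03 glia to 1410 in old astrocyte-like glia. Neighbouring groups in this order overlapped, and the only gap was to whole brain, where means were 607 to 829.3. With total counts as the scale, drpr had 2038 in old GMR10E12 glia and 1820 in young astrocyte-like glia, so their order was reversed. The order of mbc had 4789 in young astrocyte-like glia apart from the rest, then 1536 in young GMR56F03 and 1501 in old astrocyte-like glia, which overlapped, then 944, 916 and 899 in the other ensheathing groups, which overlapped among themselves. The order of crq had 4253 in young astrocyte-like glia and 3494 in old GMR10E12 glia, each apart from the next, then 1764 in young GMR10E12 and 1597 in old astrocyte-like glia, which overlapped, and 947 and 933 in GMR56F03 glia.

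Over the 12 group means, on the scale of log2 (normalized count + 1), the 3 genes most like drpr among 6898 with a mean of at least 50 were LanB2, LManII and CG3164, with Pearson r of 0.99 each. Those most like crq were Esyt2, RpS3A and Sccpdh2, with r of 0.98 each. NimC4 was under the minimum and was not ranked. Groups share brains and drivers, so these values describe the pattern alone. Among the 10 genes, drpr had r = 0.97 with Ced-6, 0.92 with crq, 0.92 with Shark and 0.87 with mbc, and -0.46 with Src42A and -0.54 with Crk. Over the 6 sorted groups alone r was 0.91 for Ced-6, 0.87 for crq, 0.41 for Shark and 0.44 for mbc. It was -0.98 for Src42A and -0.41 for Crk. In young astrocyte-like glia, Src42A was at 243 normalized counts (52 reads) in replicate 1, the shallowest sorted library. Replicates 2 and 3 of that group held 1067 and 744. The r of Src42A without that library was not computed.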

How the data were processed

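Poly(A) RNA of 36 libraries was profiled with Smart-seq3. The authors aligned reads to dm6 with STAR 2.7.3a, removed unmapped and improperly paired reads and deposited raw counts per FlyBase gene, counted in union mode, which leaves out reads on several genes. Use of UMIs is not given in the sources used here. Comparisons were fitted on these counts with edgeR 4.0.16 in R 4.3.3 (quasi-likelihood test, TMM scaling, filterByExpr, two-sided), each on its own libraries, with line or age as covariate, Benjamini-Hochberg adjustment over all genes tested and a call at adjusted p under 0.05. SE was derived from the fold change and its F statistic. Normalized counts are counts divided by size factors over all libraries, computed in separate code by the median-of-ratios rule that DESeq2 uses. Depth ran from 912285 to 17060052 counts, and PCR reads are not independent molecules. Sorted cells and whole brain share brains per the study's methods: their deviations had a mean r of 0.12 (9 of 18 pairs over 0.1). Named genes were all 10 members, up to 4 called genes of each other list in each direction with the largest change, and the 3 genes most like drpr, NimC4 and crq. The members and lists were chosen with earlier results of these data known. The ligand gene orion was not analysed here. Alternatives were DESeq2 1.42.0, other scaling and filters, the replicate block, and left-out replicates, libraries and lines. Leaving out the shallowest libraries and fitting ensheathing lines alone in joint contrasts were added after seeing the data. The code was tested on simulated data.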

Additional observations from a re-analysis of the deposited data

Results flagged for a closer look

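Each gene was checked in sets of 6 or 9 libraries that pool driver lines. The 40 checks share libraries, so no chance rate is given. In 8 of the 40 checks 1 library stood far from the others. Of these, 5 were the shallowest library, replicate 1 of old GMR10E12 whole brain, among 9 old whole brains: drpr was lowest there at 349 normalized counts (42 reads), Crk lowest at 365 (44 reads), Shark highest at 74.8 (9 reads), Ced-12 highest at 988 (119 reads) and crq highest at 930 (112 reads). Among the same 9 libraries mbc was lowest in replicate 2 of old GMR86E01 whole brain at 268 normalized counts, the others holding 335 to 389. Shark was highest in replicate 3 of old GMR56F03 glia at 197 normalized counts, the other 5 old ensheathing libraries holding 78.3 to 105. NimC4 was highest in replicate 3 of young GMR10E12 glia at 49.2 normalized counts, the other 5 holding 0 to 13.1.

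Age effects that differed between tissues by a test of the difference were, for ensheathing minus astrocyte-like glia on the log2 scale, 0.82 for drpr, 1.04 for Ced-6, 1.29 for mbc, -0.77 for Crk and 1.86 for crq. For astrocyte-like glia minus whole brain they were -0.94 for drpr, -1.62 for mbc and -1.31 for crq. Both sets use the same astrocyte-like libraries.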

How the results depend on the processing

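No called value of the 10 genes changed direction, and 19 of 37 kept their call under every alternative. Counts of the 10 genes called moved as follows. DESeq2 called 2 genes for ensheathing against astrocyte-like glia (1 in edgeR), 2 for age in ensheathing glia (1), 4 for age in astrocyte-like glia (2) and 2 for age in whole brain (1), and one fit over all libraries called 4 for age in astrocyte-like glia. Requiring 10 counts in every library gave 2 for age in ensheathing glia and left Shark untested against whole brain of both ensheathing lines. With GMR56F03 as the only ensheathing line, 2 were called against astrocyte-like glia and 2 for the difference in age effect (5 with both lines). Age in whole brain gave 3 without GMR10E12 and 0 without GMR56F03. The replicate block, paired by source for sorted cells and whole brain, left 1 of 3 for the astrocyte-like age effect minus that of whole brain and ended the Crk call in GMR56F03 glia against whole brain. Between ages a number is shared by label only (mean r 0.04, over 0.1 for 3 of 18 pairs), and the block left 1 of 2 for age in GMR56F03 glia. It also ended the drpr difference in age effect between ensheathing and astrocyte-like glia and changed no other call. Leaving out replicates or libraries gave 0 to 1 between the ensheathing lines, 1 to 2 for age in ensheathing glia, 0 to 2 in GMR56F03, 0 to 2 in GMR10E12, 0 to 3 in astrocyte-like glia, 0 to 3 in whole brain, 2 to 4 for ensheathing minus astrocyte-like age effects and 0 to 3 for astrocyte-like minus whole brain. Over all genes, DESeq2 made 932 calls for ensheathing against astrocyte-like glia (568 in edgeR), 1279 for age in GMR10E12 glia (825), 1181 for age in astrocyte-like glia (553, and 2226 in one fit over all libraries), 745 for ensheathing minus whole brain age effects (425) and 901 for astrocyte-like minus whole brain (401). The replicate block gave 366 for ensheathing against astrocyte-like glia, 540 for age in GMR10E12 glia, and 269 and 212 for the ensheathing and astrocyte-like age effects minus whole brain. GMR56F03 alone gave 359 against astrocyte-like glia, 179 for its age effect minus whole brain (GMR10E12 alone 43) and 241 for ensheathing minus astrocyte-like age effects (1139 with both lines). Age in whole brain gave 676 without GMR56F03 and 1016 without GMR86E01 (2067). Leaving out 1 replicate number lowered the edgeR count to as few as 2404 of 3630 for GMR10E12 glia against whole brain, 148 of 568 for ensheathing against astrocyte-like glia and 372 of 1066 between the ensheathing lines. For age it fell to 755 of 1689 for ensheathing glia, 379 of 1297 for GMR56F03, 29 of 825 for GMR10E12, 77 of 553 for astrocyte-like glia and 768 of 2067 for whole brain. For the differences in age effect it fell to 204 for ensheathing minus astrocyte-like, 70 for ensheathing minus whole brain and 0 for astrocyte-like minus whole brain, the last without replicate 2, where 1356 of 9512 genes had an unadjusted p below 0.05 and DESeq2 called 530. With total counts as the scale, 23 of 120 group levels moved by more than 1 SD. Several of these were in young astrocyte-like glia, the baseline of that age comparison. There drpr went from 2347 to 1820, Ced-6 from 3988 to 3089 and mbc from 4789 to 3712. Levels of crq went from 4253 to 3294 and of Crk from 891 to 692. On that scale old astrocyte-like glia held 1470, 2572, 1564, 1666 and 911 in the same order. Depth limits NimC4, which had no read in 5 of 18 sorted libraries.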
